A study of Mus musculus with 4 samples.

Results

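Open chromatin at 41 imprinted genes was examined in mouse embryonic stem cells kept by an engineered SOX17, called SOX17FNV, or by SOX2. The genes are 41 of the 49943 in the gene table used, and all were found there by symbol. Each stands for its gene span in the mm10 build plus 10 kb on either side. Of 170898 open regions in the series, 308 overlapped these windows. The regions were taken by their position in these windows. The assay was ATAC-seq, where a transposase cuts exposed DNA and leaves sequencing adapters in it.

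All cells were of the embryonic stem cell line 2TS22C, with endogenous SOX2 silenced, treated with DOX and grown in 2i serum/LIF medium. In the SOX17FNV group a lentivirus supplied SOX17FNV. In the SOX2 group a lentivirus supplied SOX2, so neither group used the native Sox2 gene. Each group had 2 libraries, titled as biological replicates, from 900000 cells each. The labels do not say whether they came from separately derived cells, so the spread between libraries may be technical. The comparison asks whether the engineered factor leaves the same chromatin open at these genes as SOX2 does.

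An imprinted gene is one known for expression from the copy of 1 parent. The choice is set in the germ line by DNA methylation of a control region, often the promoter of a paternally expressed gene that is methylated on the maternal copy. Imprinted genes lie in clusters that share such a region, and many of them act on growth, placenta and behaviour. In stem cells the marks are held through DNA replication by ZFP57 and TRIM28, which bind methylated control regions, and by the maintenance methyltransferase DNMT1. The peak lists used here do not separate the parental copies and carry no methylation, so every value below is a sum over both copies. The parental class given for a member is the listed one. Whether the member is expressed from 1 copy in these cells was not tested.

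Promoter sequences are shown for 4 members whose values the results turn on. Peg3 had the strongest start of all members by peak height. Mest and Plagl1 are paternally expressed genes with a maternally methylated promoter, and their sequences hold the letters TGCCGC or the reverse GCGGCA, the core that ZFP57 recognises. Rasgrf1 had the weakest open start by peak height and also the region with the largest ratio between the groups. The bases are the 250 upstream of the gene start, from RefSeq in the build GRCm38.p6, given 5′ to 3′ on the gene's strand, with each CpG in capitals.
Peg3, chr7:6730420-6730669, minus strand: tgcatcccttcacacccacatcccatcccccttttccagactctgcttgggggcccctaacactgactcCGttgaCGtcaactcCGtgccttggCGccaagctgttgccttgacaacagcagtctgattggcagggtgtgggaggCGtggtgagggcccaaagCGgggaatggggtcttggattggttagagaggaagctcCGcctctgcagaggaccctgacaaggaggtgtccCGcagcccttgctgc
Mest, chr6:30737800-30738049, plus strand: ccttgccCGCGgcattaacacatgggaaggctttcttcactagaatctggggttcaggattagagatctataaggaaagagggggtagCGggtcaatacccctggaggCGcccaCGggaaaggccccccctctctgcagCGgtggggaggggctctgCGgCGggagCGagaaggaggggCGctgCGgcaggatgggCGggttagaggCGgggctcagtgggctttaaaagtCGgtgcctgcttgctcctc
Plagl1, chr10:13090582-13090831, plus strand: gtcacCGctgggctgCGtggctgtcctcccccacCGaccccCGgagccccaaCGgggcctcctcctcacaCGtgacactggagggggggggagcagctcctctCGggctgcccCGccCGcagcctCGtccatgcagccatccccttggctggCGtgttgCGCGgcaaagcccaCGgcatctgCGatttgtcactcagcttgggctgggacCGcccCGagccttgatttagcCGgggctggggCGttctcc
Rasgrf1, chr9:89909525-89909774, plus strand: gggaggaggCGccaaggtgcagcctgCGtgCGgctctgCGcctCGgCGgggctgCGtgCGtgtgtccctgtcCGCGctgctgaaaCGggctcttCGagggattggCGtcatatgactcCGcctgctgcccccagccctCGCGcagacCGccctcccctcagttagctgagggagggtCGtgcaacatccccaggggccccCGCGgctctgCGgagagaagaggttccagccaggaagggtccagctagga

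These 250 bases held 8 CpGs at Peg3, 14 at Mest, 19 at Plagl1 and 21 at Rasgrf1. The median was 10.5 over the members' promoters and 6 over all promoters of the table. TGCCGC on either strand occurred 2 times at Mest, once at Plagl1 and in no upstream sequence of Peg3 or Rasgrf1. Over the upstream bases of all 32851 listed promoters, 8.68% held it. Among members, 35 had an entry, with 52 promoters, and 8 of these promoters held it, at Copg2, Mcts2, Meg3, Mest, Plagl1, Slc22a2 and Zim1. The SOX core CATTGTT, on either strand, occurred in 3.29% of all promoters and in 1 of the members', at Igf2, which encodes a growth factor. A match is a run of letters and not a bound site.

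The peaks of all libraries were merged where they overlapped by at least 1 bp, and a library called a region when it had a peak there. Member regions called numbered 211 and 178 in the SOX17FNV libraries, against 238 and 191 in the SOX2 libraries. The mean was 194.5 ± 23.3 with SOX17FNV and 214.5 ± 33.2 with SOX2 (SD, n = 2), a smaller gap than that between the libraries of each group. Summit pileup, the number of stacked reads at the highest point of a peak, was recovered from the deposited fold and p of each peak. The lowest summit pileups reached 11 and 10 in the SOX17FNV libraries, against 12 and 13 in the SOX2 libraries. To set the libraries side by side, each pileup was divided by the library's median over regions called in all libraries. Such medians came to 33 and 24 in the SOX17FNV libraries, against 35 and 28 in the SOX2 libraries. The lowest background pileup of any peak was 3.91 and 3.27 with SOX17FNV and 4.17 and 5.02 with SOX2. Fold enrichment is taken over each peak's own background, which can be higher. Its median was 3.36 and 3.51 with SOX17FNV and 3.29 and 2.99 with SOX2. The library with the highest of these lowest backgrounds, SOX2 replicate 2, also had the lowest median enrichment. Read totals, and so depth, are not known. All 8 stem cell markers, Pou5f1 and Nanog among them, had an open start in each library, and so did 4 of 6 fibroblast, 3 of 4 endoderm and 3 of 4 trophectoderm markers, so open starts alone did not set these cell types apart. The starts of Col3a1, Postn and Gata4 were closed in each library. For Sall4, Dppa4, Thy1, Col1a1, Gata4, Sox7, Gata6 and Tfap2c no start was listed, and either end of the gene span was taken.

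Most imprinted genes had an open start in both groups. A start was called open when a region lay within 1 kb of it. Of 41 members, 34 and 35 had an open start in the SOX17FNV libraries, against 35 and 33 in the SOX2 libraries, and 33 had one in all libraries. Over 17492 protein-coding genes, 64.3% had one in all libraries. With a distance of 250 bp, 31 members remained against 61.9% of all genes, and with 2.5 kb 37 against 67.6%. For H19, Cdkn1c, Peg10, Sgce, Rtl1 and Impact the promoter table gave no start, and either end of the gene span was taken. Of these, Cdkn1c, Peg10, Sgce and Impact are among the 33. The 17492 genes leave out part of the 21887 protein-coding genes, while the members include the non-coding H19 and Meg3. Member counts and background shares are thus not strictly like for like. None of the 33 open starts reached a ratio of 1.5 between the groups, and their log2 ratios ran from -0.26 at Ndn to 0.41 at Zim1.

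**Figure D1:**
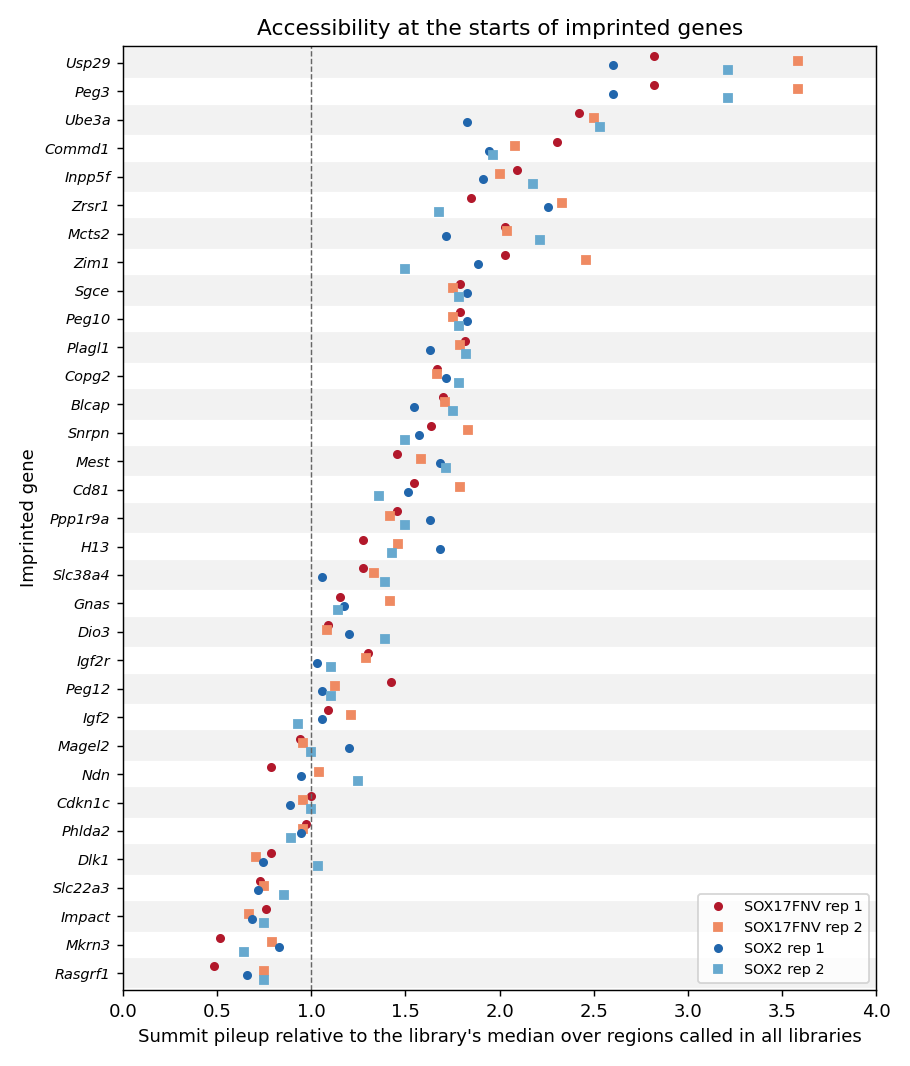
Relative summit pileup (x axis, pileup over the library's median) at the start of each of the 33 imprinted genes open in all libraries (y axis), 1 point per library, SOX17FNV in reds and SOX2 in blues. Peg3 and Usp29 share the strongest region and Rasgrf1 has the weakest, and the points of the groups lie close together along the whole range.

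The start of highest relative pileup belonged to Peg3 and Usp29. Peg3 is a paternally expressed zinc-finger gene of maternal behaviour. Usp29, a paternally expressed gene of the ubiquitin peptidase family, starts beside it in the other direction. Their region on chromosome 7, 6727130 to 6729791, lies inside Peg3 and had pileups of 93 and 86 in the SOX17FNV libraries, against 91 and 90 in the SOX2 libraries. Its mean relative pileup was 3.05, and its lowest percentile in any list was 99.9. Its fold enrichment, 3.48 and 3.89 with SOX17FNV and 3.13 and 3.56 with SOX2, was close to the library medians. Those medians were 3.36 and 3.51 with SOX17FNV and 3.29 and 2.99 with SOX2. The Inpp5f start, of lower pileup, had folds of 8.33 and 7.66 with SOX17FNV and 7.94 and 8.50 with SOX2. The Peg3 region was thus highest by pileup and not by fold. At 2662 bp it was also wider than 99.8% of regions called in all libraries. A second region, 6730178 to 6730544, covers the Peg3 start and 125 of the bases printed above. There the pileups were 46 and 49 with SOX17FNV and 61 and 51 with SOX2. The folds there were 1.77 and 2.29 with SOX17FNV and 2.16 and 2.11 with SOX2. The groups overlapped in relative pileup at the wider region.

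Ube3a, the maternally expressed ubiquitin ligase gene of Angelman syndrome, followed with pileups of 80 and 60 in the SOX17FNV libraries, against 64 and 71 in the SOX2 libraries. At Commd1, a copper metabolism gene, they were 76 and 50 with SOX17FNV and 68 and 55 with SOX2. Zrsr1, a paternally expressed splicing factor gene inside Commd1, had 61 and 56 with SOX17FNV and 79 and 47 with SOX2. The relative pileups of the groups overlapped at Ube3a and Zrsr1 and lay apart at Commd1, by a log2 ratio of 0.17.

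Inpp5f, an inositol phosphatase gene, had 69 and 48 in the SOX17FNV libraries, against 67 and 61 in the SOX2 libraries. Mcts2, a paternally expressed retrogene inside H13, had 67 and 49 with SOX17FNV and 60 and 62 with SOX2. Zim1, a maternally expressed zinc-finger gene next to Peg3, had 67 and 59 with SOX17FNV and 66 and 42 with SOX2. Of these 3, only Zim1 had groups that did not overlap in relative pileup.

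Peg10, a paternally expressed gene derived from a retrotransposon and needed for the placenta, and Sgce, which encodes a sarcoglycan, share a start. The region there (chromosome 6, 4746815 to 4749587) had pileups of 59 and 42 in the SOX17FNV libraries, against 64 and 50 in the SOX2 libraries. Its width of 2773 bp was above that of 99.9% of shared regions. At Snrpn, which encodes a splicing protein and begins at the control region of its cluster, the start region (chromosome 7, 60002822 to 60005218) had 54 and 44 with SOX17FNV and 55 and 42 with SOX2. It spans 2397 bp, more than 99.5% of shared regions. The wide regions at the Peg3, Peg10 and Snrpn starts were singled out after their widths were seen, and Mest, with the same kind of promoter, had a start region of 650 bp, wider than 29.2% of shared regions.

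The open starts with the lowest mean relative pileup were those of Rasgrf1, Mkrn3, Impact, Slc22a3 and Dlk1, at 0.66 to 0.82 times the library median. Rasgrf1, which encodes a guanine nucleotide exchange factor of neurons, had 16 and 18 in the SOX17FNV libraries, against 23 and 21 in the SOX2 libraries. The region, 89909533 to 89910239 on chromosome 9, holds 242 of the bases shown for it. Dlk1, a Notch ligand-like gene, had 26 and 17 with SOX17FNV and 26 and 29 with SOX2. These starts were called in every list but sat low in them, with the lowest percentile between 24.6 and 43.3.

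The starts of H19, Tspan32, Slc22a18, Meg3, Rtl1 and Slc22a2 were closed in every library by the 1 kb rule. The nearest region called in all libraries lay 1059 bp away at Tspan32 and 1365 bp at Meg3. It lay 3589 bp away at Slc22a18, 7982 bp at Rtl1 and 51726 bp at Slc22a2. Slc22a2, a kidney cation transporter gene, was the only member without a region called in all libraries, and its single region (chromosome 17, 12621493 to 12621713) had a pileup of 12 in SOX2 replicate 1. H19, a maternally expressed non-coding RNA gene, had its nearest shared region 3146 bp away, at 142581292 to 142582096 on chromosome 7, with pileups of 23 and 25 with SOX17FNV and 32 and 23 with SOX2. Nnat, a neuronal proteolipid gene, was open in SOX17FNV replicate 2, with a pileup of 20, and in SOX2 replicate 1, with 30. Grb10, which encodes an adaptor that limits insulin signalling, was open at its start in both SOX17FNV libraries and in SOX2 replicate 1, with pileups of 18, 13 and 21, and closed in SOX2 replicate 2. The nearest region called in all libraries lay 1095 bp from the Nnat start and 1044 bp from the Grb10 start.

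Both listed parental classes, which were not measured in these cells, had open starts in both groups. Of 22 paternally expressed members, 20 had an open start in all libraries, and of 19 maternally expressed members 13. Among 13 members with a maternally methylated promoter, 12 did, Nnat being the exception. Over 17492 protein-coding genes the share was 64.3%, and differences from it were not tested. The median log2 ratio of SOX17FNV over SOX2 in the regions called in all libraries was 0.05 for paternally and -0.02 for maternally expressed members, and 0.06 for those with a methylated promoter. Over all such regions of the genome it was 0.04.

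Control regions of these clusters also start non-coding RNAs. Airn, the antisense RNA that silences Igf2r on the paternal copy, begins inside Igf2r in a region at 12741011 to 12742859 on chromosome 17, with pileups of 49 and 32 in the SOX17FNV libraries, against 59 and 42 in the SOX2 libraries. Kcnq1ot1, which silences the Kcnq1 cluster, begins at 143295398 to 143297385 on chromosome 7, with 69 and 56 with SOX17FNV and 61 and 67 with SOX2. Peg13, taken at either end of its gene span, had an open start as well, while Snhg14, Rian and Mirg were closed at theirs in every library. The 6 genes of this list that the table holds had 47 regions, of which 21.3% were shared by all libraries, against 33.8% of all regions. Of the 47, 0 were SOX17FNV-only and 1 (2.13%) was SOX2-only, against 3.06% and 4.09% of all regions.

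Of 16 other protein-coding genes in the clusters, Kcnq1 and Ascl2 among them, 11 had an open start in all libraries, against 64.3% of 17492 protein-coding genes. Their 140 regions held 1 SOX17FNV-only (0.714%) and 6 SOX2-only (4.29%). Genes that keep imprints in place were open in both groups. All 8, Zfp57, Trim28, Dnmt1, Zfp445, Uhrf1, Ctcf, Dppa3 and Arid4a, had an open start in each library. For Dppa3 and Arid4a, as for Kcnq1, Klf14, Ins2, Nap1l4, Kcnk9 and Trappc9 of the clusters, no start was listed. Either end of the gene span was taken there. The start of Zfp57 had pileups of 80 and 46 in the SOX17FNV libraries, against 68 and 65 in the SOX2 libraries. At Dppa3, a gene of an egg factor that protects methylation, they were 31 and 23 with SOX17FNV and 45 and 37 with SOX2. In relative pileup the groups overlapped at the Zfp57 start and lay apart at the Dppa3 start, by a log2 ratio of -0.46. The median over the 5 shared regions of Dppa3 was also -0.46. The 73 regions of the 8 genes held 1 SOX17FNV-only (1.37%) and 4 SOX2-only (5.48%), against 3.06% and 4.09% of all regions. The median log2 ratio of the shared ones was 0.02, and 1 was at least 1.5 times lower with SOX17FNV, with the groups apart.

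Across the 308 member regions, few were particular to a group. A region is named SOX17FNV-only where both libraries of that group called it and no SOX2 library did, and SOX2-only in the opposite case. Of the 308, 5 were SOX17FNV-only, a share of 1.62% (exact 95% interval 0.529 to 3.75), against 3.06% of all regions. The 16 SOX2-only regions made up 5.19% (3.0 to 8.30), against 4.09% of all regions. Near any protein-coding gene, within the same 10 kb, 2.84% were SOX17FNV-only and 3.71% SOX2-only. Both background shares lie inside the members' intervals, which cover counting error only and treat neighbouring regions as independent. The counts moved with the libraries used. A group left with 1 library needs a call only in that one, and regions of the other group need to be missing only from that one. SOX17FNV-only regions came to 20 when SOX17FNV replicate 1 was left out and to 31 when SOX17FNV replicate 2 was. They came to 21 when SOX2 replicate 1 was left out and to 9 when SOX2 replicate 2 was. SOX2-only regions came to 27 when SOX17FNV replicate 1 was left out, to 37 when SOX2 replicate 1 was and to 58 when SOX2 replicate 2 was. With 2 libraries against 2, the smallest p of an exact permutation test is 0.33.

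**Figure D2:**
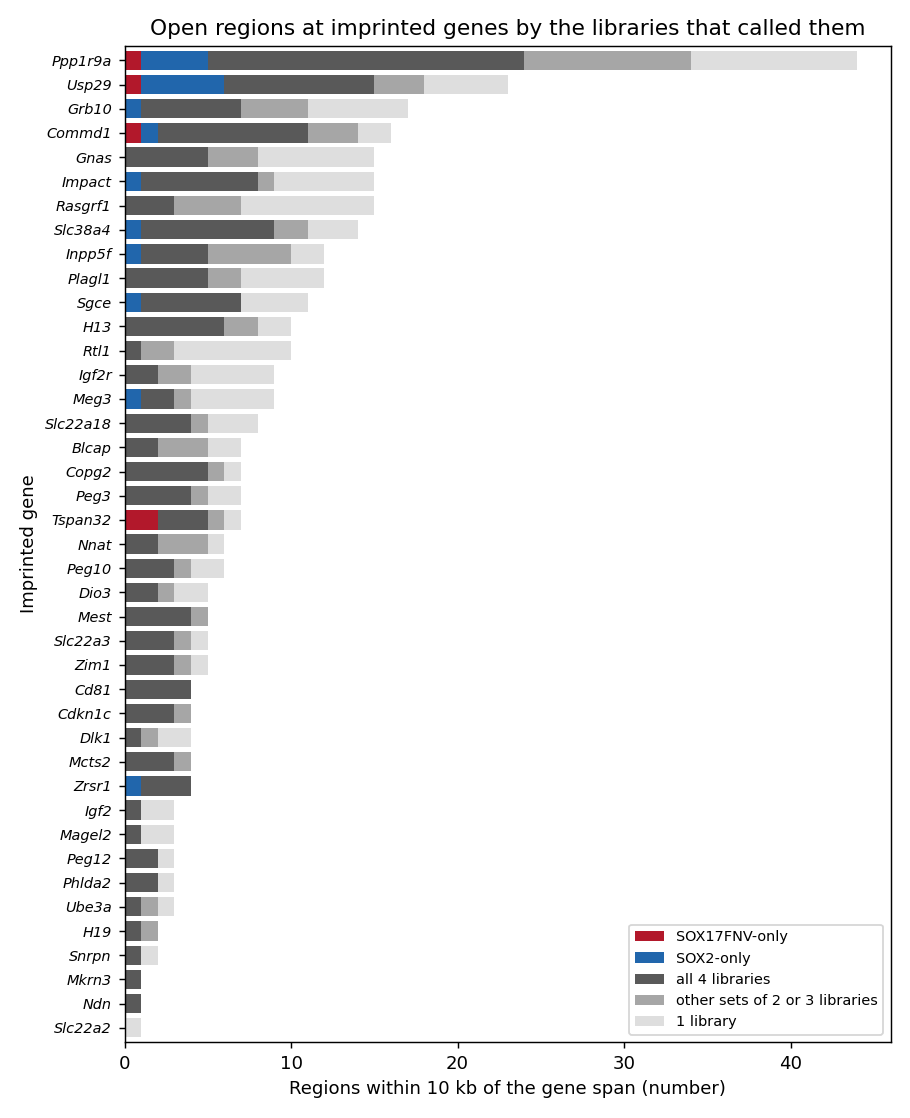
Number of regions within 10 kb of each imprinted gene (x axis) by the set of libraries that called them (colours), genes in order of their number of regions (y axis). Ppp1r9a with 44 and Usp29 with 23 regions hold most of the SOX2-only regions, and 28 genes have neither a group-specific region nor one with a ratio past 1.5.

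Regions called in all libraries made up the largest class, 133 of 308, or 43.2% (37.6 to 48.9), against 33.8% of all regions and 35.6% of those near protein-coding genes. Regions called in 1 library alone were 98 of 308, or 31.8% (26.7 to 37.3), against 35.2%. In all, 34 regions lie in the windows of more than 1 member, and these differences were not tested. Density was a median of 13.9 regions per 100 kb of window over the members and 12.4 over protein-coding genes. It ran from 0.41 at Snrpn, whose span of its cluster holds 2 regions, to 26.7 at Nnat.

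Of the 16 SOX2-only regions, 9 lay at Usp29 and Ppp1r9a. Usp29 had 5, at 54027, 62879, 93224, 149066 and 224939 bp from its start, against 1 SOX17FNV-only region at 51223 bp. All 6 are inside the gene. The strongest, at 6879649 to 6880578 on chromosome 7, had pileups of 25 and 20 in the SOX2 libraries and no peak in the SOX17FNV libraries. The other SOX2-only regions of Usp29 had 14 and 21 at 6784610 to 6785188, 18 and 17 at 6793462 to 6794094, 16 and 19 at 6823807 to 6824130, and 19 and 18 at 6955522 to 6956014 in the SOX2 libraries. The SOX17FNV-only one, 6781806 to 6782305, had 12 and 12 in the SOX17FNV libraries. The SOX2-only regions of Usp29 other than the strongest stood between the percentiles 9.54 and 43.8 of the SOX2 lists, and the SOX17FNV-only one at 5.50 and 11.3 of the SOX17FNV lists. Of 1248 protein-coding genes with at least 20 regions, 4.17% had SOX2-only regions in excess by 4 or more. The difference at Usp29, SOX17FNV-only minus SOX2-only, was -4. It was -8 without SOX2 replicate 2 and -1 with only peaks of -log10 q of at least 5.

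Regions shared by all libraries in the Usp29 window also leaned to SOX2. The median log2 ratio of its 9 shared regions was -0.15, at the percentile 12.3 among 3605 protein-coding genes with at least 5 shared regions. Shared regions within 5 Mb of the Peg3 domain outside it had a median of 0.02. A region 246242 bp from the Usp29 start, beyond the gene's end (6976825 to 6977496), had pileups of 24 and 17 in the SOX17FNV libraries, against 49 and 40 in the SOX2 libraries. Its relative pileup was 0.718 ± 0.0134 with SOX17FNV and 1.41 ± 0.0202 with SOX2 (SD, n = 2), a log2 ratio of -0.98. Within the gene, 6759881 to 6760970 had 15 and 13 with SOX17FNV and 26 and 28 with SOX2, a log2 ratio of -0.80. In both regions the SOX17FNV libraries were the lower ones, and the exact permutation p was 0.33, the smallest that the design allows. A lower pileup can come from fewer cells with the region open or from less opening per cell, which cannot be told apart here.

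**Figure D3:**
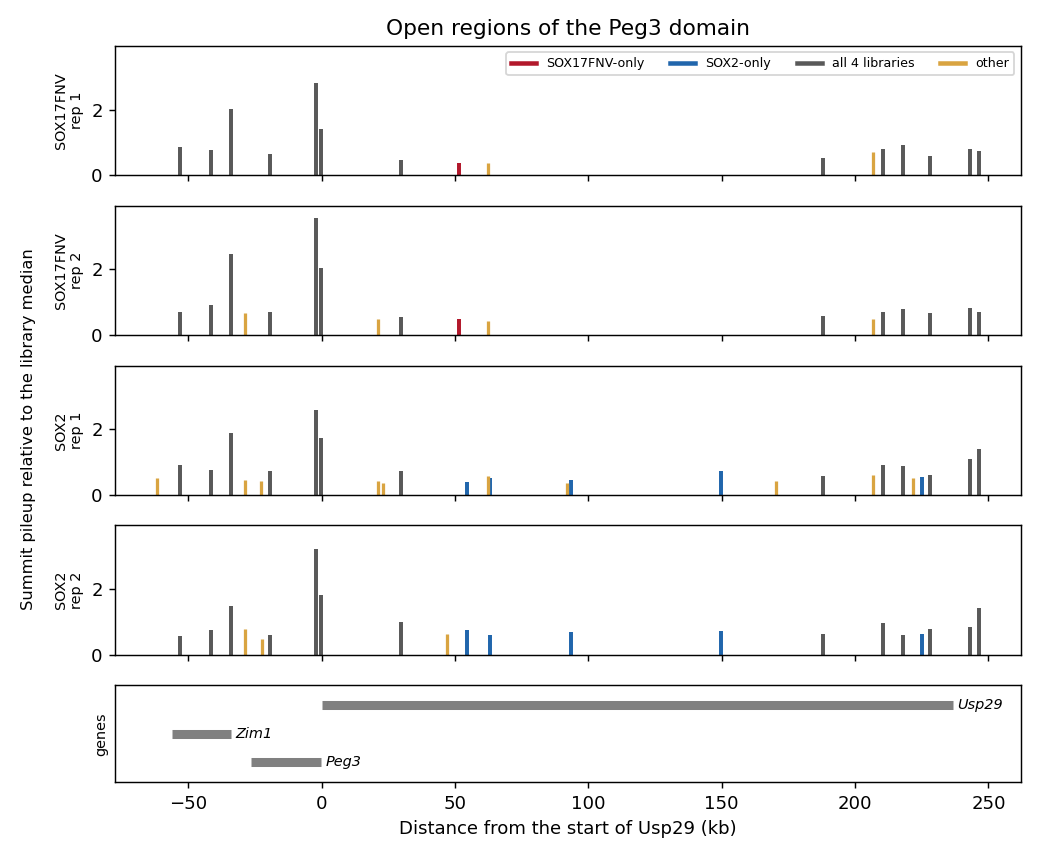
Relative summit pileup (y axis) of each region of the Peg3 domain in the 4 libraries, by distance from the start of Usp29 in kb (x axis), with gene spans in the lowest panel. The peak at the Peg3 start stands at 2.60 to 3.58 in every library, while blue SOX2-only regions inside Usp29 are missing from the upper 2 panels.

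Ppp1r9a, which encodes the neuronal scaffold neurabin, had 4 SOX2-only regions and 1 SOX17FNV-only region among 44. Its strongest SOX2-only region, 4979985 to 4980492 on chromosome 6, lies inside the gene 76674 bp from the start. It had pileups of 53 and 38 in the SOX2 libraries, at the percentiles 90.5 and 82.9 of their lists, and no peak in the SOX17FNV libraries. Of the SOX2-only regions at the members, this one had the highest pileup in both SOX2 libraries. The next, 5007818 to 5008807, had 35 and 32 in the SOX2 libraries, while 5099196 to 5099706 had 13 and 14, and 5167347 to 5167722, beyond the gene's end, had 20 and 17. The SOX17FNV-only region, 5043255 to 5043628, had 12 and 11 in the SOX17FNV libraries. The difference of -3 was -4 and 1 without replicates 1 and 2 of SOX17FNV, and -6 and -5 without replicates 1 and 2 of SOX2. Leaving out a library loosens the rule for SOX17FNV-only and for SOX2-only regions, but not equally. Without SOX17FNV replicate 2, 15.4% of all regions were SOX17FNV-only and 5.53% SOX2-only, against 3.06% and 4.09% with all libraries. Whether the direction at Ppp1r9a rests on that library can therefore not be told from its turn to 1. Among genes with at least 20 regions, 8.89% had a SOX2-only excess of 3 or more.

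SOX2-only regions also lay upstream of 3 further genes. Meg3 is the maternally expressed non-coding RNA gene of the Dlk1 domain, and 8240 bp before its start a region (chromosome 12, 109532019 to 109532756) had pileups of 44 and 30 in the SOX2 libraries and no peak in the SOX17FNV libraries. It stood at the percentiles 83.9 and 70.8 of the SOX2 lists. Before the Commd1 start by 3243 bp, 22985527 to 22986002 on chromosome 11 had 39 and 34 in the SOX2 libraries. Slc38a4, an amino acid transporter gene of the placenta, had one 4660 bp before its outermost start (chromosome 15, 97060616 to 97061153), with 27 and 22 in the SOX2 libraries. The remaining SOX2-only regions lay 1 each inside 4 genes, with no peak in the SOX17FNV libraries. In the SOX2 libraries, 11941160 to 11941808 in Grb10 had pileups of 30 and 19, and 4712016 to 4712255 in Sgce had 23 and 14. The region 128664112 to 128664896 in Inpp5f had 17 and 18, and 12989769 to 12990106 in Impact had 15 and 14.

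Of the 5 SOX17FNV-only regions, 2 lay before Tspan32, a tetraspanin gene at the edge of the Kcnq1 cluster on chromosome 7. The region at 143002796 to 143003162, 1884 bp before the start, had pileups of 31 and 19 in the SOX17FNV libraries and no peak in the SOX2 libraries. The second, 7129 bp before the start (142997520 to 142997917), had 21 and 10 in the SOX17FNV libraries. Inside Commd1, 22906512 to 22907194 had 14 and 12. The difference at Tspan32 was 2, and it was 1 without SOX17FNV replicate 1, 1 without SOX2 replicate 1 and 0 with -log10 q of at least 5. Median percentiles of the members' SOX17FNV-only regions were 14.7 and 11.3 in the SOX17FNV lists, against 29.1 and 28.7 for all SOX17FNV-only regions. The members' SOX2-only regions stood at 42.2 and 34.2 in the SOX2 lists, against 37.0 and 29.0 for all.

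Among the 133 shared regions, the strength of most was close between the groups. In 110 of them the log2 ratio lay within 0.322 of 0. A region was called different in pileup where the libraries of the groups did not overlap and the geometric mean ratio was at least 1.5. Of the 133, 6 were higher with SOX17FNV, or 4.51% (exact 95% interval 1.67 to 9.56), against 3.45% of all shared regions. Lower with SOX17FNV were 4, or 3.01% (0.825 to 7.52), against 3.95%. Both directions together gave 7.52%, against 7.4%, so the members were called about as often as other regions. Without SOX2 replicate 1, 9 were lower. With no minimum ratio, 32 were higher and 27 lower, or 24.1% and 20.3%, against 24.1% and 18.4% of all shared regions.

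**Figure D4:**
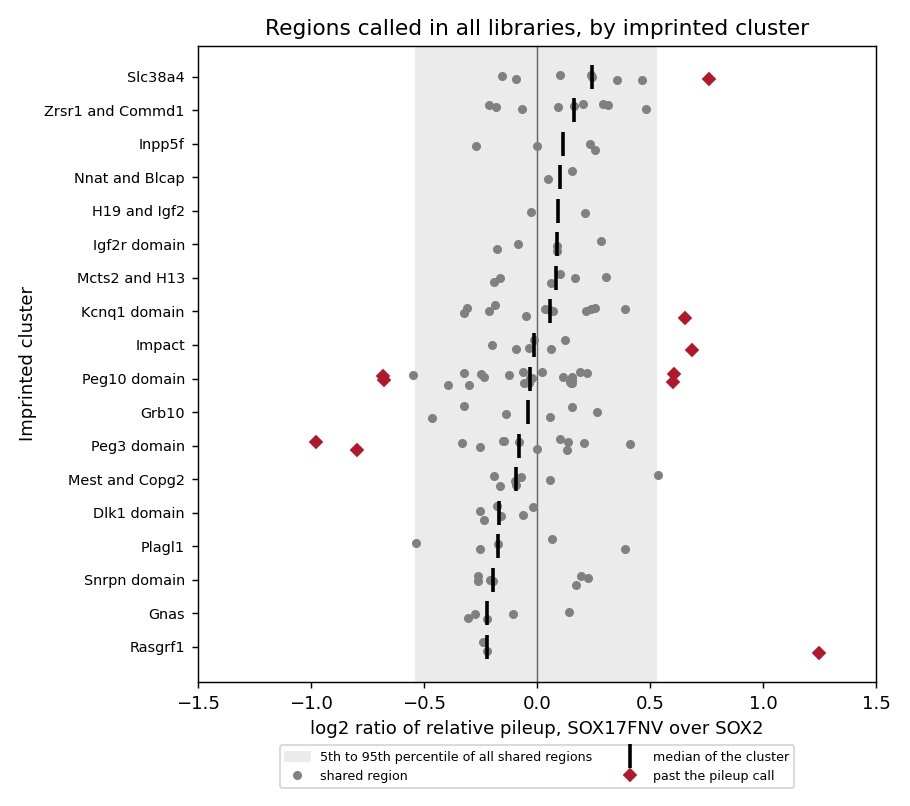
log2 ratio of relative pileup, SOX17FNV over SOX2 (x axis), of each region called in all libraries, by imprinted cluster (y axis). Grey points fall mostly within the grey band, the range from the 5th to the 95th percentile of all shared regions (-0.53 to 0.53), and the 10 red diamonds are the regions past the ratio of 1.5 with groups apart.

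The largest ratio was upstream of Rasgrf1. A region 8962 bp before its start (chromosome 9, 89900230 to 89900813) had pileups of 43 and 36 in the SOX17FNV libraries, against 20 and 17 in the SOX2 libraries. Relative pileup was 1.40 ± 0.139 with SOX17FNV and 0.589 ± 0.0253 with SOX2 (SD, n = 2), a log2 ratio of 1.25, or 2.37 times. Both SOX17FNV libraries lay above both SOX2 libraries, with an exact permutation p of 0.33, the smallest possible. Shared regions within 5 Mb had a median log2 ratio of -0.06. At the Rasgrf1 start, whose sequence is printed above, the log2 ratio was -0.22, and inside the gene at 89968448 to 89969293 it was -0.24.

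At Slc38a4 a region inside the gene, 97027716 to 97028758, had pileups of 47 and 33 in the SOX17FNV libraries, against 29 and 23 in the SOX2 libraries. Relative pileup was 1.40 ± 0.0348 with SOX17FNV and 0.825 ± 0.00505 with SOX2 (SD, n = 2), a log2 ratio of 0.76. Of the 8 shared regions of this gene, 6 were above 0, with a median of 0.24, where neighbours within 5 Mb had 0.06. Cd81, which encodes a tetraspanin of the cell surface, had a region at 143062437 to 143063328 with 54 and 36 in the SOX17FNV libraries, against 44 and 22 in the SOX2 libraries, a log2 ratio of 0.66. Leaving out SOX17FNV replicate 1 gave 0.57 and leaving out SOX2 replicate 2 gave 0.26, both under the call. Impact, a regulator of translation, had one at 12959506 to 12960129 on chromosome 18 with 24 and 22 in the SOX17FNV libraries, against 14 and 18 in the SOX2 libraries, a log2 ratio of 0.69. This call was lost when SOX17FNV replicate 2 was left out, at 0.51, or SOX2 replicate 1, at 0.29.

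The Peg10 domain held regions of both directions within short distances. Inside Sgce, 4684637 to 4686005 had 56 and 38 in the SOX17FNV libraries, against 44 and 26 in the SOX2 libraries, a log2 ratio of 0.60. Close to it, 4677359 to 4678161 had 25 and 16 with SOX17FNV and 53 and 24 with SOX2, a log2 ratio of -0.68. In relative pileup the SOX2 libraries differed more there than at the other 9 regions past the ratio. In Ppp1r9a, 5052109 to 5053095 had 33 and 25 with SOX17FNV and 21 and 21 with SOX2, a log2 ratio of 0.61. Farther along, 5137906 to 5139997 had 34 and 19 with SOX17FNV and 60 and 34 with SOX2, a log2 ratio of -0.68. All lie inside their genes. Each of these 4 calls was lost when some library was left out. The higher Sgce region was at 0.53 once SOX17FNV replicate 1 was left out and at 0.33 once SOX2 replicate 2 was, and the lower one at -0.32 without SOX2 replicate 1. In Ppp1r9a the higher region was at 0.57 once SOX17FNV replicate 2 was left out and at 0.39 once SOX2 replicate 1 was, and the lower one at -0.49 and -0.48 without the same libraries.

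The Dlk1 domain on chromosome 12 had 23 regions, and all 6 shared ones were below 0, at log2 ratios of -0.25 to -0.02, where neighbours within 5 Mb had a median of -0.02. Over all shared regions 55.2% were above 0. Both shared regions of the Meg3 window lay close to its start without reaching it. The region before the gene, 109538858 to 109539631, had pileups of 31 and 29 in the SOX17FNV libraries, against 49 and 29 in the SOX2 libraries. Inside the gene, 109542741 to 109543739 had 56 and 46 with SOX17FNV and 65 and 61 with SOX2. In relative pileup the groups overlapped at both.

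Rtl1, a paternally expressed gene derived from a retrotransposon, lies opposite a row of maternally expressed microRNAs that pair fully with its transcript. Of the 10 regions in its window, 7 were called in SOX2 replicate 1 alone, with pileups of 22 to 31, and 4 of those also lie in the Meg3 window. Over all regions 12.6% were called in that library alone, and over the member regions 13.3%. Of 732 protein-coding genes with exactly 10 regions, Rtl1 was the only 1 with 7 or more of this kind, a pattern chosen after its values were seen. Since 1 of 2 SOX2 libraries shows it, it does not separate the groups.

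**Figure D5:**
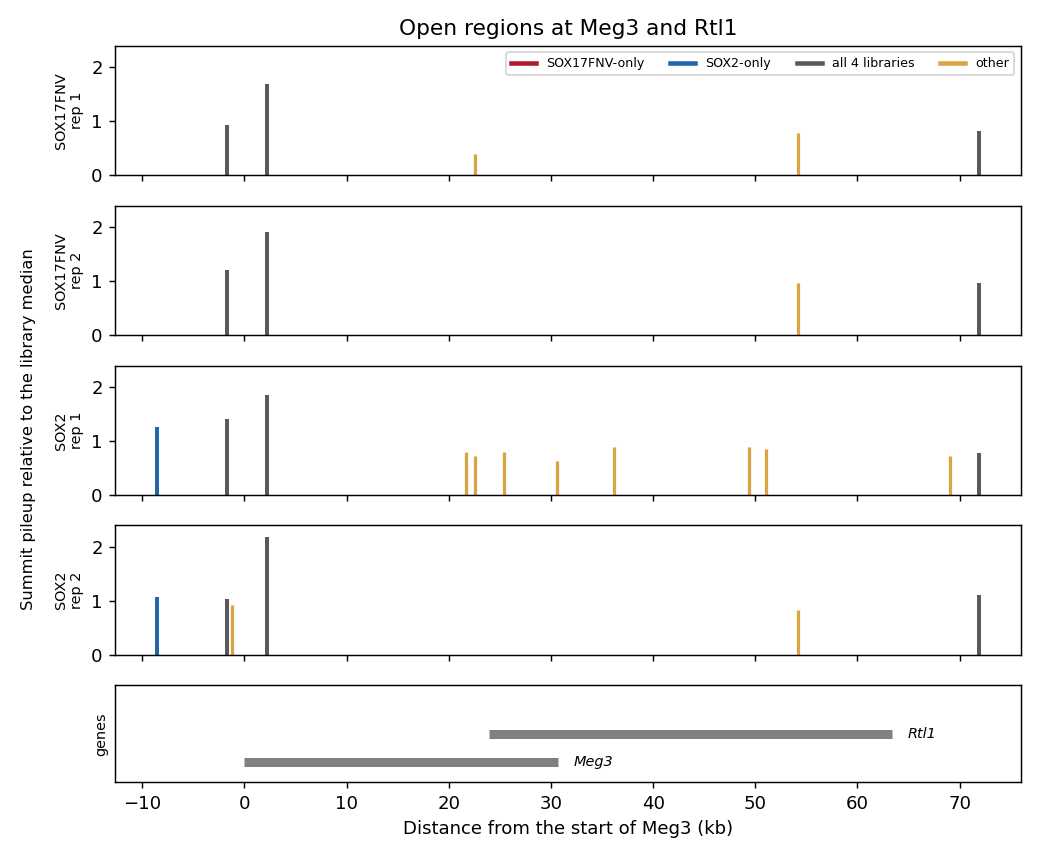
Relative summit pileup (y axis) of each region at Meg3 and Rtl1 in the 4 libraries, by distance from the start of Meg3 in kb (x axis), with gene spans in the lowest panel. Yellow regions over Rtl1 stand in the panel of SOX2 replicate 1 and are mostly missing from the others, and the blue SOX2-only region before Meg3 appears in both SOX2 panels.

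The microRNAs whose hairpins lie within 1 kb of these regions are shown because they mark where the open DNA falls along Rtl1. Sequences are mature arms from RefSeq in the build GRCm38.p6, 5′ to 3′, with the seed, bases 2 to 8, in capitals.
miR-431-5p: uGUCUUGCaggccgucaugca
miR-431-3p: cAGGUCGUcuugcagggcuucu
miR-433-5p: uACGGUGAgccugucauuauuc
miR-433-3p: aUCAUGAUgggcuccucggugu
miR-127-5p: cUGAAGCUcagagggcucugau
miR-127-3p: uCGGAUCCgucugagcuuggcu
miR-434-5p: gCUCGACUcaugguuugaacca
miR-434-3p: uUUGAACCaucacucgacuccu
miR-136-5p: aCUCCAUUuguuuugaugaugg
miR-136-3p: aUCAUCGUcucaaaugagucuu

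The 10 seeds differ from each other, so the arms form no family by seed. The hairpin of Mir431 lies inside the region at 109589937 to 109590748, called in SOX2 replicate 1 alone with a pileup of 31. Mir433 and Mir127 lie on either side of 109591966 to 109592176, called in the same library alone with a pileup of 30. Mir136 lies inside 109595006 to 109595395, and Mir434 lies within 1 kb before it. That region was called in both SOX17FNV libraries, with pileups of 26 and 23, in SOX2 replicate 2, with 23, and not in SOX2 replicate 1. The library that called the other microRNA regions was thus the one that lacked this one.

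The remaining clusters had no group-specific region and no shared region past the ratio of 1.5. They are Mcts2 with H13, Nnat with Blcap, Gnas, Mest with Copg2, the Snrpn domain, H19 with Igf2, Plagl1 and the Igf2r domain. Their median log2 ratios over shared regions ran from -0.22 at Gnas to 0.10 at Nnat and Blcap. Gnas encodes the stimulatory G protein subunit and has several imprinted promoters. Its strongest region, 174294423 to 174296108 on chromosome 2, had pileups of 54 and 52 in the SOX17FNV libraries, against 68 and 59 in the SOX2 libraries. Plagl1, a zinc-finger gene that restrains growth, had a start region with 60 and 43 with SOX17FNV and 57 and 51 with SOX2, and a second one inside the gene (chromosome 10, 13106840 to 13109268) with 61 and 49 with SOX17FNV and 67 and 70 with SOX2. At Igf2 the region nearest to a start, 142659897 to 142660960 on chromosome 7, had 36 and 29 with SOX17FNV and 37 and 26 with SOX2. The start region of Mest, a hydrolase gene of the mesoderm, had 48 and 38 with SOX17FNV and 59 and 48 with SOX2.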

How the data were processed

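ATAC-seq libraries of 2 groups, 2 per group, were used as 1 deposited MACS2 peak list per library in mm10. Bowtie2, SAMtools and MACS2 are named in the submitters' processing notes. Not given in the sources used here were tool versions, settings and any transposase shift. Per the deposited columns, each line holds the authors' score, a fold enrichment as the ratio of summit pileup to background, and −log10 p-values and q-values, with a lowest −log10 q of 1.30. These are the authors' own values per peak and served only to describe, rank or filter peaks. Pileups were solved from fold and p within a tolerance of 0.001 on the −log10 scale. The files give no read totals.

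Peaks were merged into regions (minimum overlap 1 bp) and counted by library, and relative pileup and its ratio were taken as the report states. Positions count from 1. Gene spans came from the RefSeq table for GRCm38.p6, which gives no exons, introns or UTRs, so regions are placed only as inside or outside a gene. Starts came from the promoter table, or from either gene end where it lists none. The steps were checked on simulated peaks. Group means carry an SD over 2 libraries. Single ratios have an exact permutation test, two-sided, with 0.33 the smallest p. Intervals of shares are exact binomial at 95% and cover counting error only. Regions were named by rule, with the pileup of each library that called them. These were each group-specific region, each shared region past the pileup call and the 10 strongest open starts. The members, the gene lists and the markers were chosen with earlier results of these data known. Nespas, a further non-coding gene, is not analysed here. Alternatives were stricter q, lists of equal length, summit-based regions, other flanks and start distances, fold in place of pileup, local scaling, other minimum ratios, a replicate block and leaving out each library. Python 3.11.15, NumPy 2.4.6, pandas 2.3.3, SciPy 1.17.1 and Matplotlib 3.10.9 were used.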

Additional observations from a re-analysis of the deposited data

How the results depend on the processing

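The counts above moved with the strength of peak required, the libraries used and the minimum ratio. With −log10 q of at least 5, 6 SOX2-only, 70 all-library, 1 higher and 1 lower region were found, at a density of 8.49 per 100 kb. SOX17FNV-only regions still numbered 5, but 0 of the original 5 were among them, and 3 of the 16 SOX2-only regions stayed SOX2-only. With at least 10 there were 3 SOX17FNV-only, 3 SOX2-only and 37 all-library regions, 0 higher and 0 lower, 19 open starts and a density of 4.43. Lists of equal length gave 3 higher regions and a density of 12.2, summit-based regions a density of 17.1, the gene span alone 3 SOX17FNV-only regions and a density of 16.3, and 25 kb flanks a density of 12.7. Fold enrichment in place of pileup gave 1 higher and 2 lower, no minimum ratio 32 and 27, and a minimum ratio of 2 gave 1 and 0. Leaving out each library in turn gave 9 to 31 SOX17FNV-only, 19 to 58 SOX2-only, 136 to 148 all-library, 5 to 7 higher and 6 to 9 lower regions. The difference at Ppp1r9a ran from -6 to 1 and turned direction, to 1, without SOX17FNV replicate 2. Fewer libraries or stricter peaks change the counts by construction, and other causes were not tested.

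The log2 ratios of the 10 regions past the ratio of 1.5 kept their sign in each alternative that gave a value. The Rasgrf1 region ran from 1.14 to 1.33 and stayed past the call in 9 of 9, as did both Usp29 regions. These 9 do not include −log10 q of at least 5 or of at least 10, where the Rasgrf1 and Usp29 regions had no ratio. Their calls were thus not kept with the stricter peaks. Slc38a4 stayed in 9 of 10, missing it with fold enrichment at 0.58, and the other 6 in 4 to 7 of 8 to 10. Same-numbered libraries deviated together with a correlation of 0.23 over 57783 shared regions, but no label ties the numbers to a shared culture. The deposited lists of the same number also carry a common code, whose meaning the labels do not give. A replicate block left 5 SOX17FNV-only, 16 SOX2-only, 6 higher and 4 lower regions, and changed no other call.

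With 2 libraries per group no single ratio can reach a p below 0.33. A region missing from a list may lie just under its threshold, so group-specific regions with pileups near 10 to 13 were barely above the weakest peaks listed. Alleles and methylation were not measured.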
